A study of Mus musculus with 27 samples.

Results

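The cytosolic ribosomal protein genes encode the proteins of the ribosome outside the mitochondria. They were taken as the protein-coding genes of GENCODE M21 whose symbol starts with Rpl or Rps, without the Rps6k kinases. The rule gave 92 genes, and 91 of them had values among the 38123 genes of the files; Rpl24 was not analysed here. Of the 91, 45 code for a large subunit protein, 31 for a small subunit protein, 9 are variant copies named after a family member or, in 1 case, Rps19bp1, which encodes a protein that binds Rps19, and 6 are copies whose symbol carries "-ps" although they are annotated as protein-coding.

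The cells were mouse embryonic stem cells of the XY line DTCM23/49, which carries a conditional allele of Dicer. This enzyme cuts hairpin precursors into mature microRNAs. The cells were kept on gelatin in serum with LIF. Culture with 800 nM 4-hydroxytamoxifen deleted the RNase III domain, and Dicer-deficient colonies were selected and expanded; the protocol names 0.1% ethanol as the control. Polyadenylated RNA was sequenced from whole cells before the loss (day 0) and 4, 8, 10 or 12 days later, from nuclei at days 12 and 0, and from cytoplasm at days 12 and 0, with 3 libraries in each of the 9 groups. The labels give ethanol-treated cells for none of the later days, so Dicer loss, drug, colony selection and time in culture cannot be told apart. The labels call the 3 libraries replicates without naming separate cultures, so the p-values reflect a spread that may be technical.

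The ribosome has a large and a small subunit, and each protein is needed in about the same number of copies per particle. Cells therefore tend to make these proteins in balance, and their mRNAs are among the most abundant of a growing stem cell. The mRNAs start with a C followed by a run of pyrimidines, the 5-prime terminal oligopyrimidine tract, through which mTOR signalling and the RNA-binding protein LARP1 govern their translation and stability. Because the mRNAs are abundant, they have also left many processed copies in the genome, and reads of such copies and of their parent gene are hard to tell apart.

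The pyrimidine-rich start can be seen in the RefSeq promoter table for GRCm38.p6, which held 56 of the 76 subunit genes. The letters CTTTCC stood on the gene's strand within 50 bases of an annotated start in 18 of these 56 genes (32.1%), against 1468 of all 27025 genes with a promoter (5.43%). On the other strand they stood in 1 of 56 (1.79%), against 1385 of 27025 (5.12%). Windows of 5 of these genes, in which the letters begin at most 3 bases from the start, are printed as 30 bases each, 5′ to 3′ on the gene's strand, with the matched letters in capitals.
Rpl38, chr11:114668568-114668597, plus strand: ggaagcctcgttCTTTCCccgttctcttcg
Rps27, chr3:90213630-90213659, minus strand: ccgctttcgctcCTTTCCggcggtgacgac
Rpl28, chr7:4792955-4792984, plus strand: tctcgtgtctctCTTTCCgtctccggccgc
Rpl35a, chr16:33056472-33056501, plus strand: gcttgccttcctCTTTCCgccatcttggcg
Rpl18, chr7:45718062-45718091, plus strand: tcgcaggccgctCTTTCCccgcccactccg
A match is a description of these letters only. The 18 genes with the letters had a median log2 change of -0.56 at day 10 against day 4 in whole cells, beside -0.53 in the 38 genes without them.

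Values are FPKM, fragment numbers divided by transcript length and by the total of the library, so each is relative to its own library. In bulk samples fewer cells of a type and less RNA per cell cannot be told apart, and total RNA per nucleus or cytoplasm was not measured. Dicer1 was 14.6 ± 1.77 FPKM in the 3 whole cell libraries labelled day 12 (SD, n = 3), against 1.83 ± 0.124 at day 10 and 16.3 ± 1.47 at day 0, so these libraries go against their label and are called the libraries labelled day 12. At days 4 and 8 it was 1.41 ± 0.462 and 1.71 ± 0.173 FPKM. In cytoplasm it was 3.06 ± 0.366 at day 12 and 22.5 ± 1.18 at day 0, and in nuclei 4.20 ± 1.11 and 13.3 ± 4.75. The day pairs did not overlap, with an exact 2-sided permutation p of 0.1 in each fraction, the smallest that 3 against 3 allows. Correlations within groups were 0.963 to 0.996 on the log2 scale, and all 9 markers of pluripotent stem cells reached 1 FPKM in every group.

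A set of 3 libraries stood apart in the ribosomal protein genes. The 91 genes summed to 112220 FPKM in whole cell day 4 replicate 3, against 74006 and 63780 in the other day 4 libraries. Nucleus day 12 replicate 1 held 20538 FPKM, against 49494 and 44634 in the other day 12 nuclei, and nucleus day 0 replicate 3 held 87102 FPKM, against 44793 and 38147 in the other day 0 nuclei.

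Summed over the 91 genes, the ribosomal protein mRNAs took the smallest share of the whole cell libraries at day 10. The sums were 88855, 82567 and 76305 FPKM at day 0, and at day 4 as above. They were 66287, 66391 and 62934 FPKM at day 8, 57613, 56889 and 54797 at day 10, and 73658, 82255 and 84114 in the libraries labelled day 12. Every day 10 library lay below every other whole cell library. In cytoplasm the sums were 42143, 43283 and 41038 FPKM at day 12, against 58012, 61467 and 58545 at day 0, without overlap. As a share of all FPKM, the genes held 15.3% ± 0.246 at day 10, against 20.4% ± 3.54 at day 4, and 11.6% ± 0.372 in day 12 cytoplasm, against 16.0% ± 0.416 in day 0 cytoplasm (SD, n = 3 each). The sum was 32.3% lower at day 10 than at day 4, and 18.1% lower without day 4 replicate 3. In cytoplasm it was 29.0% lower at day 12 than at day 0.

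**Figure D1:**
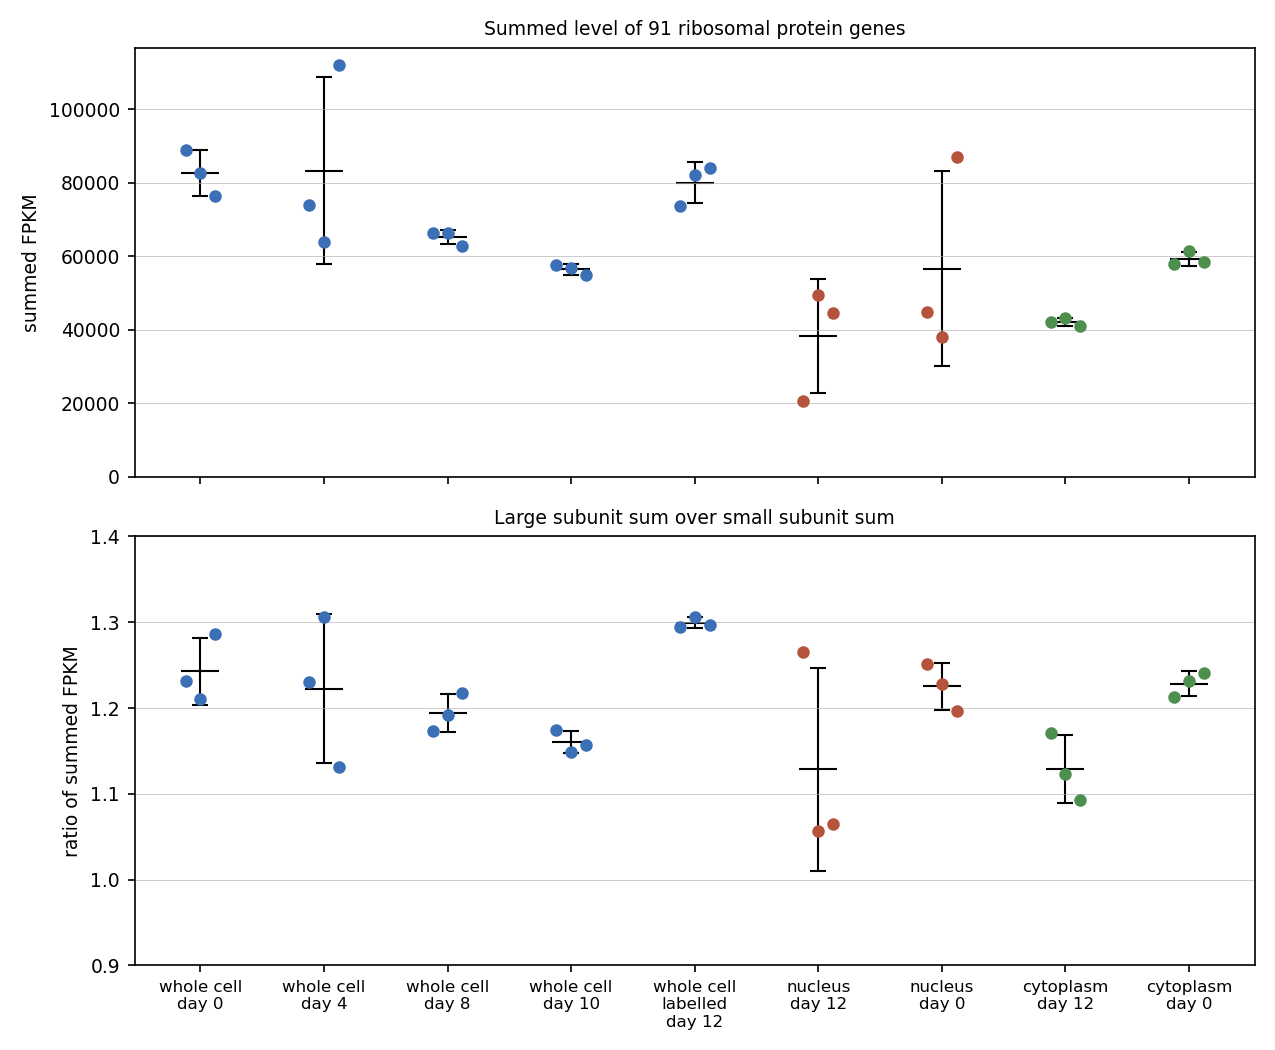
Summed FPKM of the 91 ribosomal protein genes (top) and the ratio of the summed large subunit genes to the summed small subunit genes (bottom, axis from 0.9) in 27 libraries. Points are libraries, and the black marks are the mean ± SD of 3. The day 10 libraries sit between 54797 and 57613 FPKM, below all other whole cell libraries, and day 12 cytoplasm sits between 41038 and 43283 FPKM, below day 0 cytoplasm.

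Large subunit genes held a slightly smaller part of the sum in day 12 cytoplasm than in day 0 cytoplasm. The ratio of the large subunit sum to the small subunit sum was 1.16 ± 0.0128 at day 10, against 1.22 ± 0.0873 at day 4. In cytoplasm it was 1.13 ± 0.0391 at day 12, against 1.23 ± 0.0143 at day 0, with libraries at 1.17, 1.12 and 1.09 at day 12, against 1.21, 1.23 and 1.24 at day 0. The 2 cytoplasm groups did not overlap, and the whole cell groups did. The libraries labelled day 12 had the highest group mean, 1.299 ± 0.00623.

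At day 10 against day 4 in whole cells, 60 of the 89 genes tested fell and 0 rose, in limma on log2(FPKM + 0.5) at an adjusted p under 0.05 over 15991 genes. Over all genes tested, 14.2% fell and 23.3% rose. The estimates were below 0 for 87 of the 89 genes, with a median log2 change of -0.52 beside 0.09 for all genes tested, and 62 of the 89 had day 10 libraries that were all below the day 4 libraries, beside 16.9% of all genes. All 45 large subunit estimates and all 31 small subunit estimates were below 0. Of the large subunit genes 36 fell, with a median of -0.55, and of the small subunit genes 18 fell, with a median of -0.50. The count was 46 without day 4 replicate 3, beside 17.1% of all genes, and the median -0.29. Without day 10 replicate 1, 2 or 3 it was 39, 37 and 31, with medians from -0.55 to -0.50. No share of all genes is given for the fits without a day 10 library. When day 4 and day 10 alone were fitted, 11 genes fell, beside 5.77% of all genes.

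The largest falls of genes with no overlap between the groups were Rps27rt, Rpl9, Rpl37a, Rps20, Rps2, Rpl11, Rpl31 and Rps27, with log2 changes from -0.94 to -0.81. Rpl9, which lies near the base of the stalk of the large subunit, had 155, 133 and 131 FPKM at day 10, against 217, 210.46 and 378 at day 4. All 3 day 10 values lay below the day 4 values, and the log2 change was -0.89 ± 0.21 (SE, adjusted p = 0.0048). Without day 4 replicate 3, Rpl9 still fell, by 0.62 on the log2 scale (SE 0.16, adjusted p = 0.0071).

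Rps2, a small subunit protein near the mRNA entry, had 585, 608 and 607 FPKM at day 10, against 893, 876 and 1532 at day 4. The day 10 values spanned a narrow range below all day 4 values (log2 change -0.82 ± 0.18 (SE), adjusted p = 0.0029). Rpl37a, a small zinc-binding protein of the large subunit, had 750.4, 835 and 688 FPKM at day 10, against 1216, 1134 and 1925 at day 4 (log2 change -0.87 ± 0.17 (SE), adjusted p = 0.0017). Rps27rt and Rps27 have the same coding sequence (100% identity), so reads of one cannot be assigned against the other. Their log2 changes were -0.94 ± 0.29 and -0.81 ± 0.21 (SE, adjusted p = 0.021 and 0.0097). They were -0.49 and -0.48 without day 4 replicate 3, where Rps20 was at -0.47 instead of -0.85 and Rpl31 at -0.52 instead of -0.81, and all 4 still passed.

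Rpl5 and Rpl11 form a particle with the 5S rRNA, which can also bind the p53 ligase Mdm2 when ribosome assembly is disturbed. Rpl11 had 172, 157 and 150.1 FPKM at day 10, against 243, 231 and 394 at day 4. No day 10 value reached a day 4 value, and the log2 change was -0.81 ± 0.16 (SE, adjusted p = 0.0020). Rpl5 had 94.2, 99.0 and 89.7 FPKM at day 10, against 115, 88.5 and 141 at day 4, and the groups overlapped (log2 change -0.26, and -0.10 without day 4 replicate 3, neither past the threshold). The mRNA of Mdm2 was higher, at 61.7 FPKM at day 10 and 32.2 at day 4 (means of 3), with a log2 change of 0.95, and that of p53 itself, Trp53, was 185 and 149 FPKM (log2 change 0.32). Both passed.

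The P-stalk of the large subunit, which recruits elongation factors, is made of Rplp0, Rplp1 and Rplp2, and all 3 fell. Rplp1, the second most abundant subunit gene at day 4, had 2030.3, 2392 and 1897 FPKM at day 10, against 3732, 2404 and 5498 at day 4. The groups lay apart by a narrow margin, 2392 against 2404 FPKM, and the log2 change was -0.81. Rplp0 and Rplp2 had log2 changes of -0.64 and -0.51. The changes without day 4 replicate 3 were -0.53 for Rplp0, -0.51 for Rplp1 and -0.29 for Rplp2, and all passed. Among the other genes named for their roles, Rps6, the substrate of S6 kinase, and Rpl41, the shortest ribosomal protein, fell by 0.60 and 0.56 on the log2 scale. Rps6 passed also without day 4 replicate 3, at -0.37, and Rpl41 did not, at -0.31 (adjusted p = 0.085).

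Among the 76 subunit genes the smallest changes were those of Rpsa, Rps23 and Rps27a. Rpsa, a small subunit protein also known as the laminin receptor, had 1019, 982 and 987 FPKM at day 10, against 1045, 1036 and 961 at day 4, with overlapping groups and a log2 change of -0.03. In day 4 replicate 3 it was the lowest of the day 4 libraries, unlike Rpl9, Rps2 and Rplp1. Rps23, a protein of the decoding centre, had a log2 change of -0.09, and Rps27a, made as a fusion with ubiquitin, of -0.15, and neither passed. Both were above 0 without day 4 replicate 3, at 0.17 and 0.10, again not past the threshold.

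In cytoplasm, where no library is shared with the whole cell comparison, the same direction was seen at day 12 against day 0. Estimates were below 0 for 86 of the 89 genes, with a median log2 change of -0.49 beside -0.01 for all genes tested. In 78 of the 89 the day 12 libraries were all below the day 0 libraries, beside 34% of all genes. In the fit of all 12 fraction libraries 8 genes fell and 0 rose, whereas 16.6% of the 17124 genes tested fell and 16% rose, so the share of the members called was below that of all genes. This fit takes 1 spread from nuclei and cytoplasm, and 2 of the nuclear libraries stood apart in these genes. When the 6 cytoplasm libraries alone were fitted, 78 genes fell and 1 rose, beside 33.9% and 30.7% of all genes. Leaving out any 1 of them in the larger fit gave 2 to 5 genes, with no share of all genes given.

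The 8 genes that fell in the fit of all fraction libraries were Rpl9, Rpl12, Rpl7, Rpl22l1, Rpl35, Rpl11, Rpl9-ps6 and Rpl10a. Rpl9 had 96.2, 94.98 and 73.6 FPKM at day 12, against 167, 202 and 199.8 at day 0, a log2 change of -1.10 ± 0.25 (SE, adjusted p = 0.0064). It was the largest fall of the 89 genes. Rpl7, a large subunit protein, had 256, 267 and 248 FPKM at day 12, against 441, 524 and 481 at day 0 (log2 change -0.90 ± 0.20 (SE), adjusted p = 0.0052). Rpl12, which sits at the base of the P-stalk, averaged 149 FPKM at day 12 and 288 at day 0 (log2 change -0.95 ± 0.26 (SE), adjusted p = 0.018). Rps2 had 430.3, 433 and 421 FPKM at day 12, against 789, 728 and 754 at day 0, with no overlap and a log2 change of -0.82, and it passed only when cytoplasm was fitted alone. Rps28, Rpl15, Rps29 and Rps23 had the smallest changes of the subunit genes, from -0.01 to -0.11.

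Across the 76 subunit genes, the log2 changes at day 10 against day 4 in whole cells and at day 12 against day 0 in cytoplasm had a Pearson r of 0.589 and a Spearman rho of 0.566. The 2 comparisons share no library, but they share the gene models and the processing, and genes are not independent replicates. With day 10 against day 8 in whole cells in place of day 10 against day 4, r was 0.381 and rho 0.36. Levels kept nearly the same order, with r of 0.985 between the log2 mean levels of day 10 whole cells and day 12 cytoplasm. Rps26 was the most abundant subunit gene in day 10 whole cells, at 2927 FPKM, 50.6 times the level of Rpl35a, the lowest, and the median gene was at 546 FPKM.

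**Figure D2:**
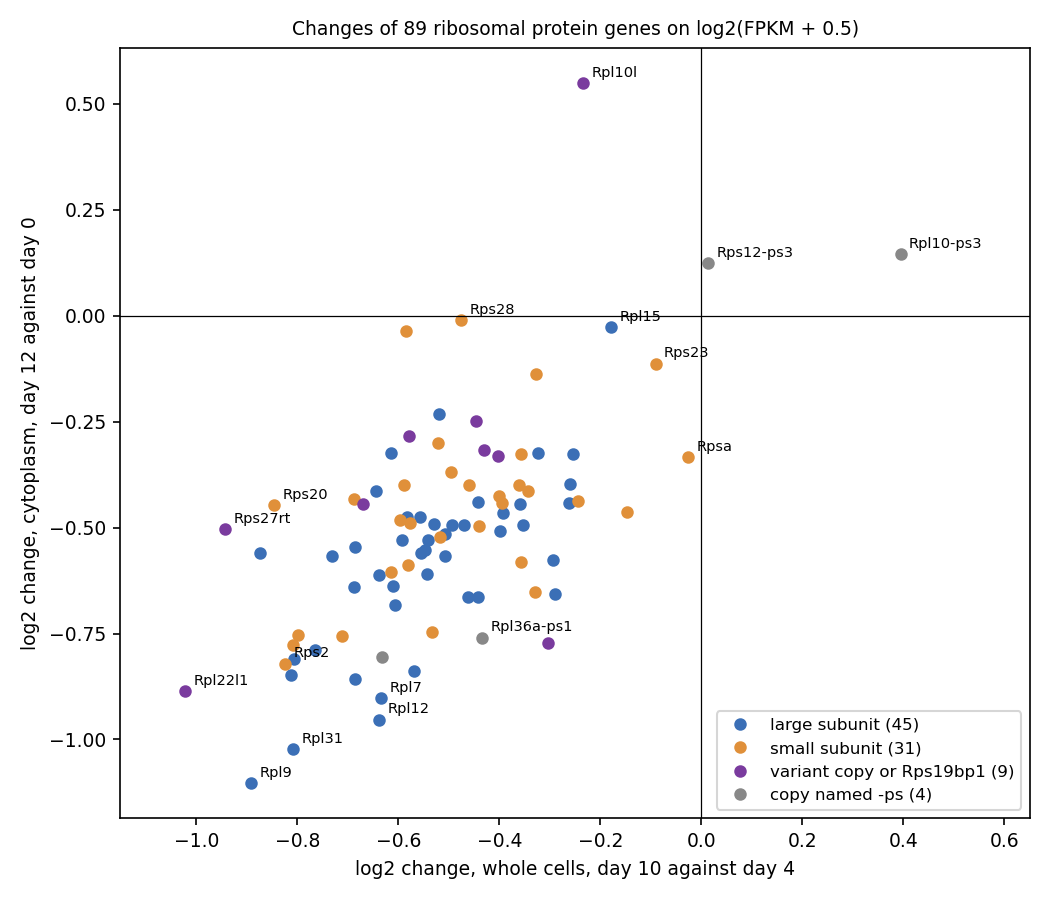
Log2 changes of 89 ribosomal protein genes at day 10 against day 4 in whole cells (horizontal) and at day 12 against day 0 in cytoplasm (vertical), coloured by class. All 76 subunit genes lie below 0 on both axes, with Rpl9 lowest on the vertical axis at -1.10, and the exceptions are the variant copy Rpl10l and the copies Rps12-ps3 and Rpl10-ps3.

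Day 8 lay between days 4 and 10. At day 8 against day 4, 11 of 89 genes fell and 0 rose, beside 6.72% of all genes falling and 13.2% rising, with a median of -0.30 beside 0.06 for all genes. Without day 4 replicate 3 the median was -0.06 and the count 7, and without day 4 replicate 2 the count was 46. Without day 8 replicate 1, 2 or 3 it was 2, 6 and 2. The 6.72% belongs to the fit of all 15 libraries, and the shares of all genes in the smaller fits are not given. The largest fall of genes that reached 2 FPKM was that of Rps18, a protein of the small subunit head, at 335 FPKM at day 8 and 539 at day 4 (means of 3, log2 change -0.67 ± 0.11 (SE), adjusted p = 0.0011). Day 10 against day 8 avoids the day 4 libraries and was added after the data were seen. There 82 of 89 estimates were below 0, with a median of -0.22 beside 0.02 for all genes, and 64 genes had all day 10 libraries below the day 8 libraries, beside 16.4% of all genes. In the fit of all 15 libraries 2 genes passed, beside 3.24% of all genes falling and 5.2% rising, and both fell: Rps10 (106 FPKM at day 10 and 156 at day 8) and Rpl29 (232 and 287 FPKM). When day 8 and day 10 alone were fitted, 49 fell, beside 7.74% of all genes.

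In the libraries labelled day 12 the genes were back near the day 4 level. Against day 4, 1 of 89 rose and 2 fell, beside 7.44% of all genes rising and 3.95% falling, with a median of -0.02. Without day 4 replicate 3, 32 rose, beside 16% of all genes. That library had the highest member sum of day 4, so leaving it out raises the change of the sum by construction. The count of 32 is therefore not read as a result about the members. Rpl3, a protein at the peptidyl transferase centre, was the 1 that rose, at 1153 FPKM and 933 at day 4 (log2 change 0.31 ± 0.09 (SE), adjusted p = 0.039). Against day 10, a comparison added after the data were seen that shares the day 10 libraries with the fall, 60 of 89 rose and 2 fell, beside 20.6% and 25.2% of all genes, with a median of 0.49 beside -0.02. Without 1 library, 36 to 55 rose, and the shares of all genes in those fits are not given. Rplp1 had 4157, 4543 and 4398 FPKM in the libraries labelled day 12, against 2030.3, 2392 and 1897 at day 10, a log2 change of 1.06 ± 0.21 (SE, adjusted p = 0.0013). These libraries also had Dicer1 near its day 0 level, as given above.

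**Figure D3:**
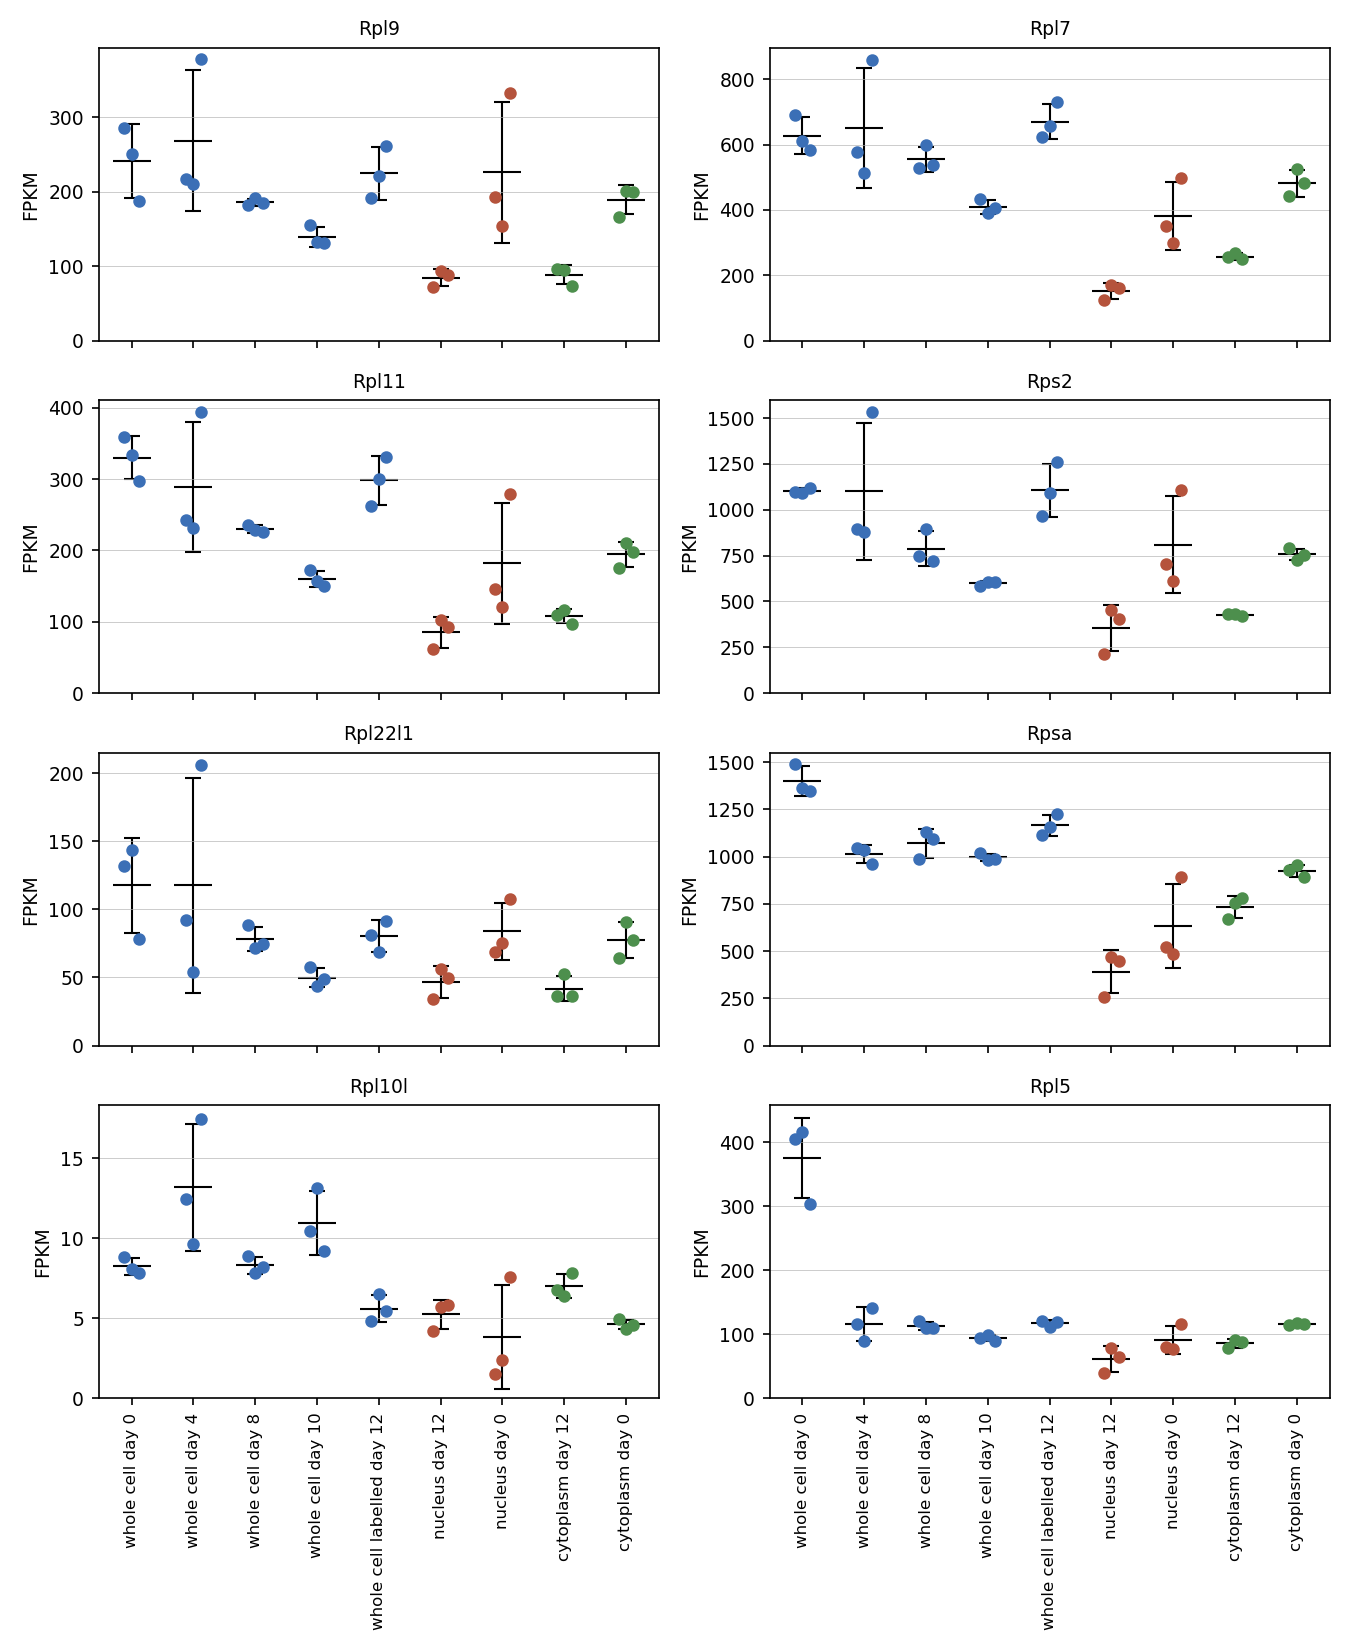
FPKM of 8 ribosomal protein genes in 27 libraries, with points for libraries and black marks for the mean ± SD of 3. Rpl9, Rpl7, Rpl11 and Rps2 are low at day 10 and in day 12 cytoplasm, Rpsa lies at 982 to 1019 FPKM at day 10 beside 961 to 1045 at day 4, Rpl10l is higher in day 12 than in day 0 cytoplasm, and Rpl5 is high only in whole cell day 0.

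The 7 partner genes of the variant copies, Rpl3, Rpl7, Rpl10, Rpl22, Rpl36a, Rpl39 and Rps27, fell at day 10 against day 4, with log2 changes from -0.81 to -0.29. Rpl22 (-0.30, adjusted p = 0.090) and Rpl39 (-0.28, adjusted p = 0.12) did not pass without day 4 replicate 3, where Rpl36a was at -0.34 instead of -0.69 and Rpl7 at -0.41 instead of -0.63. Rpl3 was at 0.011 under quantile normalization. In cytoplasm at day 12 against day 0 all 7 had groups without overlap and changes from -0.90 to -0.48. Only Rpl7 passed in the fit of all fraction libraries. When cytoplasm was fitted alone, all but Rpl39 passed (adjusted p = 0.051 for Rpl39). Rps4x, whose copy Rps4l is annotated as a pseudogene, fell by 0.39 on the log2 scale at day 10 against day 4, and by 0.21 without day 4 replicate 3, and passed in both. Rpl22l1, a paralog whose expression Rpl22 is known in mice to restrain, had 57.4, 43.5 and 48.9 FPKM at day 10, against 92.3, 54.3 and 206 at day 4. Its log2 change of -1.02 was the largest of the 89 genes and passed, but the groups overlapped, and without day 4 replicate 3 it was -0.51 (adjusted p = 0.13). In cytoplasm it had 36.5, 52.2 and 36.7 FPKM at day 12, against 64.0, 90.5 and 77.7 at day 0, without overlap (log2 change -0.89, passed). Rpl22 itself had a log2 change of -0.57 in whole cells, which passed with all libraries. Its change of -0.84 in cytoplasm did not pass in the fit of all fraction libraries. It passed when cytoplasm was fitted alone (adjusted p = 4.96e-05). The coding sequences of the 2 genes match at 74.6% over 80.6% of the length.

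Rpl10l, a copy of Rpl10 best known from the testis, went the other way in cytoplasm. It had 6.78, 6.35 and 7.81 FPKM at day 12, against 4.93, 4.34 and 4.54 at day 0, and it was the 1 gene that rose when cytoplasm was fitted alone (log2 change 0.55). Rpl10 had a log2 change of -0.53 there. In whole cells Rpl10l fell at day 8 against day 4, with means of 8.30 and 13.2 FPKM (log2 change -0.60 ± 0.18 (SE), adjusted p = 0.037). At day 10 against day 4 its log2 change was -0.23. In the libraries labelled day 12, Rpl10l had 4.79, 6.50 and 5.46 FPKM, against 12.4, 9.61 and 17.5 at day 4 (log2 change -1.14 ± 0.18 (SE), adjusted p = 0.0026). Rpl39l, the copy of Rpl39 that is likewise best known from the testis, had 2.95, 3.77 and 3.99 FPKM in these libraries, against 8.79, 5.90 and 14.0 at day 4 (log2 change -1.24 ± 0.28 (SE), adjusted p = 0.014). Those were the 2 genes that fell there. Rpl36al, Rpl7l1 and Rps19bp1 fell at day 10 by 0.45, 0.40 and 0.43 on the log2 scale. Rpl36al passed also without day 4 replicate 3, at -0.25, and Rps19bp1 did not, at -0.26 (adjusted p = 0.077). Rps27l passed neither with all libraries (-0.58) nor without that library (-0.25). Rpl3l, the copy of Rpl3 found in heart and skeletal muscle, averaged below 1 FPKM in every group but day 0 nuclei (1.24 FPKM), and its log2 change of -0.67 at day 10 passed. None of the 4 tested copies named -ps passed at day 10 against day 4, with log2 changes from -0.63 for Rpl9-ps6 (-0.30 without day 4 replicate 3) to 0.39 for Rpl10-ps3. Rpl36-ps4 and Rpl9-ps1 stayed below 1 FPKM in all 27 libraries and were not tested.

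Mitochondrial ribosomal protein genes and initiation factor genes had medians nearer to 0 than the members at day 10 against day 4. This difference was not tested. Of all genes tested there, 14.2% fell and 23.3% rose. Of 76 mitochondrial ribosomal protein genes tested, 28 fell and 1 rose, with a median log2 change of -0.25. Of 7 elongation factor genes 4 fell, Eef1d, Eef1e1, Eef1g and Eif5a, and Eef1a1, the most abundant, had 4846 FPKM at day 10 and 4341 at day 4 (log2 change 0.16). Of 29 initiation factor genes 11 fell and 0 rose, with a median of -0.19. Fau and Rack1, ribosomal proteins without an Rpl or Rps symbol, fell by 0.65 and 0.34 on the log2 scale. Of 8 other mRNAs known to start with an oligopyrimidine tract 6 fell, among them Npm1, Pabpc1 and Btf3, and 1 rose, the intermediate filament gene Vim (519 FPKM at day 10 and 134 at day 4). In cytoplasm at day 12 against day 0, 3 of the 7 elongation factor genes fell (median -0.55), and 7 of the 29 initiation factor genes (median -0.13). Of the 76 mitochondrial ribosomal protein genes, 14 fell and 4 rose there (median -0.25). These counts stand beside 16.6% of all genes falling and 16% rising. The elongation factor median in cytoplasm lay further from 0 than that of the members.

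Of 12 regulators of ribosomal protein mRNAs, 3 fell (Eif4ebp1, Larp1 and Rheb) and 2 rose (Rps6kb2 and Tsc1). Among all genes tested at day 10 against day 4, 14.2% fell and 23.3% rose. Mtor was at 9.0 FPKM at day 10 and 9.2 at day 4, and Myc at 22.0 and 22.1. Markers of several cell types also differed between the groups, not always in the same direction in whole cells and cytoplasm. The 9 pluripotency markers summed to 2403 to 2596 FPKM at day 10, against 2832 to 5012 at day 4, and to 1979 to 2102 FPKM in day 12 cytoplasm, against 3104 to 3157 in day 0 cytoplasm. The 4 trophoblast markers summed to 488 to 528 FPKM at day 10, against 239 to 272 at day 4, almost all from the keratins Krt8 and Krt18, while Cdx2 averaged 1.06 FPKM at day 10 and 0.460 at day 4. In cytoplasm these 4 summed to 351 to 390 FPKM at day 12, against 170 to 183 at day 0. The 5 endoderm markers summed to 2.19 to 2.38 FPKM at day 10, against 2.85 to 3.74 at day 4, with Ttr at 0. The 6 fibroblast markers summed to 9.40 to 10.3 FPKM, against 7.07 to 8.64, and the 3 neuroectoderm markers to 23.7 to 24.9 FPKM, against 9.61 to 14.5. In cytoplasm the endoderm and fibroblast markers went the other way. The endoderm markers summed to 2.16 to 2.67 FPKM at day 12, against 0.735 to 1.03 at day 0. The fibroblast markers summed to 3.71 to 4.38 FPKM, against 8.94 to 10.7. The neuroectoderm markers were higher there too, at 15.2 to 15.3 FPKM, against 9.13 to 10.2. The part of all these markers in the fall was not tested.

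In nuclei the result turned on single libraries. With all libraries, 14 of 89 genes fell at day 12 against day 0 and 0 rose, beside 21.6% and 15.1% of all genes, with a median log2 change of -0.60 beside -0.10. Without nucleus day 12 replicate 1 and nucleus day 0 replicate 3, which were chosen after their values were seen, 11 fell and 26 rose, beside 31.8% and 24.7% of all genes, with a median of 0.08. They are the day 12 nucleus with the lowest and the day 0 nucleus with the highest member sum, so leaving out both raises the change by construction. The 6 fibroblast markers summed to 8.81 to 19.0 FPKM in day 12 nuclei, against 34.1 to 96.2 in day 0 nuclei, with 3 of the 6 at 1 FPKM or more in each group, and their part in the result was not tested. Leaving out 1 library, 7 fell without either of these, and 26 without nucleus day 0 replicate 2. A call that held in both was that of Rpl7, with 124, 169.6 and 161 FPKM at day 12, against 350.05, 299 and 499 at day 0, and no overlap. Its log2 change was -1.31 ± 0.20 (SE, adjusted p = 0.00067), and -0.97 without the 2 libraries. Rpl9 had 72.1, 93.8 and 87.5 FPKM at day 12, against 192, 153 and 333 at day 0, again without overlap (log2 change -1.35, and -0.92 without the 2 libraries). Rps2 had a log2 change of -1.21, and of -0.62 without them.

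A set of 7 genes fell in whole cells at day 10 and in both fractions at day 12: Rpl7, Rpl9, Rpl10a, Rpl11, Rpl12, Rpl35 and Rpl22l1. Of all 15506 genes tested in both fits, 1108 (7.15%) fell in all 3, a share near that of 7 in 89. These members were 7 of the 60 that fell in whole cells, 7 of the 8 in cytoplasm and 7 of the 14 in nuclei. The fraction comparisons share no library, but they take their spread from 1 fit.

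Nucleus against cytoplasm gave few calls with all libraries. At day 12, 8 of 89 genes were lower in nuclei and 0 higher, beside 15.7% and 18.4% of all genes, and at day 0, 2 were lower and 0 higher, beside 16.4% and 25.3%. Rpl7l1, a paralog of Rpl7 known from human cells as a factor of large subunit assembly in the nucleolus, was lower in nuclei on both days. It had 23.9, 31.8 and 28.8 FPKM in nuclei, against 51.2, 55.5 and 52.4 in cytoplasm at day 12 (log2 change -0.91 ± 0.14 (SE), adjusted p = 0.00062). At day 0 it had 34.3, 34.1 and 45.1 FPKM in nuclei, against 68.4, 69.7 and 62.5 in cytoplasm (log2 change -0.82 ± 0.14 (SE), adjusted p = 0.00078). The groups did not overlap on either day. The other call at day 0 was Rpl10-ps3. At day 12, Rpsa averaged 391 FPKM in nuclei and 734 in cytoplasm (log2 change -0.95), and Rpl4, a large subunit protein of the exit tunnel, 1152 and 2150 FPKM (log2 change -0.91).

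Without the 2 nuclear libraries, 66 genes were lower and 1 higher in nuclei at day 0, beside 26.9% and 37.1% of all genes, with a median of -0.55. At day 12, 17 were lower and 28 higher, beside 26.8% and 33.2%, with a median of 0.10. The ratio of nucleus to cytoplasm changed between the days for 0 genes with all libraries (0 with an unadjusted p under 0.05 as well), beside 0.274% of all genes rising and 1.05% falling. It rose for 68 and fell for 0 without the 2 libraries, beside 17.1% and 21.6% of all genes, with a median of 0.62. Leaving out these 2 libraries raises this ratio change too by construction, as given above. It also lowers the member sum of day 0 nuclei and raises that of day 12 nuclei by construction. The counts without them are therefore not read as results about the members. The nuclear RNA markers Malat1, Neat1 and Meg3 summed to 130 to 298 FPKM in day 12 nuclei, against 25.1 to 27.8 in day 12 cytoplasm, and to 252 to 480 FPKM in day 0 nuclei, against 20.7 to 23.9 in day 0 cytoplasm. With all libraries, longer coding sequences went with lower nuclear values. Coding length and the log2 ratio of nucleus to cytoplasm had a Pearson r of -0.515 at day 12 across the 76 subunit genes. At day 0 this r was -0.473. All points came from the same libraries, the 2 nuclear libraries that stood apart included, and r without them is not given.

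**Figure D4:**
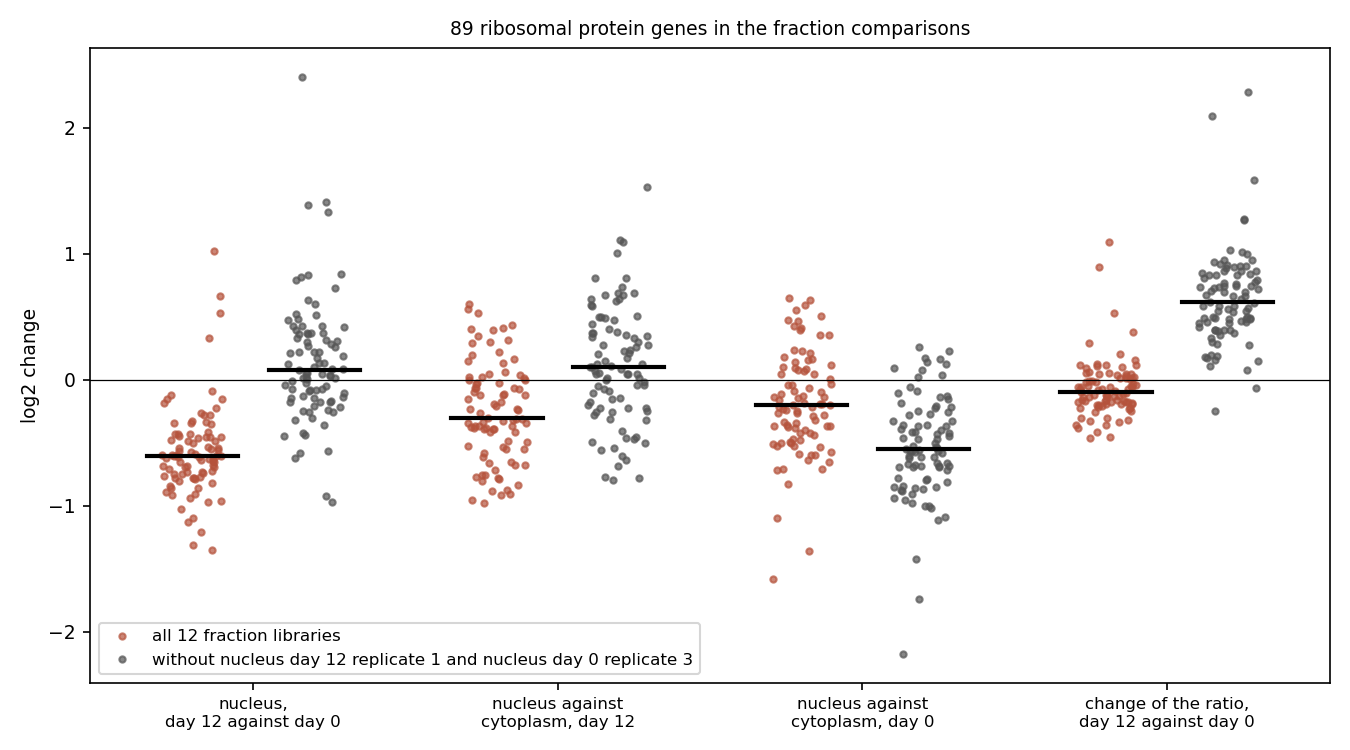
Log2 changes of the 89 tested ribosomal protein genes in 4 comparisons with a nuclear group, with all 12 fraction libraries (red, left of each pair) and without nucleus day 12 replicate 1 and nucleus day 0 replicate 3 (grey, right). Points are genes and black lines are medians, which are -0.60 and 0.08 for nuclei at day 12 against day 0, and -0.10 and 0.62 for the change of the ratio.

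Whole cell day 0 stood apart most for single genes with near-identical copies, and the members as a set differed too, as given below. Rpl5 had 114, 118 and 116 FPKM in day 0 cytoplasm, against 406, 416 and 303 in day 0 whole cells, and every other group averaged 60.6 to 117 FPKM. Rps12-ps3, whose coding sequence is identical to that of Rps12 over 97.0% of it, had 69.6, 56.9 and 34.8 FPKM in day 0 cytoplasm, against 0.604, 0.535 and 0.345 in day 0 whole cells. Rpl9-ps6 (99.8% identity to Rpl9) had 37.3, 36.9 and 35.9 FPKM in day 0 cytoplasm, against 4.00, 2.61 and 2.84 in day 0 whole cells. Rpl36a-ps1 had 7.49, 8.16 and 5.36 FPKM in day 0 cytoplasm and was listed at 0 in the 3 day 0 whole cell libraries. Rpl10-ps3 (100% identity to Rpl10) went the other way, with 28.0, 27.9 and 15.1 FPKM in day 0 cytoplasm, against 140.2, 110.3 and 108 in day 0 whole cells.

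Of the 89 genes, 4 were higher in day 0 cytoplasm than in day 0 whole cells and 24 lower, beside 11.4% and 5.48% of all genes, with a median of -0.51 beside 0.07. Without 1 of the 6 libraries, 12 to 16 were lower. At day 4 against day 0 in whole cells, 4 rose and 13 fell, beside 4.88% and 1.82% of all genes. The largest changes there were again those of Rps12-ps3, Rpl9-ps6, Rpl10-ps3 and Rpl5, with log2 changes of 5.86, 3.45, -2.63 and -1.71, and of Rpl27, at 307 FPKM at day 4 and 608 at day 0, together with Rpl36a-ps1, at 8.39 FPKM at day 4 and listed at 0 at day 0. Without day 4 replicate 3, 32 fell, without day 0 replicate 1, 8 fell, and when the 2 days alone were fitted 2 fell. The shares of all genes that fell in these fits are not given, so these counts cannot be set against them. Leaving out day 4 replicate 3, the day 4 library with the highest member sum, lowers the day 4 sum by construction.

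In GENCODE M21, 939 pseudogenes match the coding sequence of a member at 90% identity or more over at least 80% of it, and 597 of them had values. They touch 79 of the 91 genes, with a median of 8 copies and up to 76 for Rpl21, and 65 genes have a copy at 98% or more. The FPKM of these copies came to 9.76% to 14.0% of that of the members in day 0 cytoplasm, against 4.44% to 5.08% in day 0 whole cells. The day 0 whole cell libraries were also the deepest, at 3.03 to 3.58 on a relative scale read from the smallest FPKM steps, against 0.707 to 1.79 for all others. In day 0 cytoplasm against day 0 whole cells, the median log2 change was -0.54 for the 7 subunit genes without such a copy. It was -0.46 for the 38 with 1 to 10 copies and -0.56 for the 31 with over 10. The part of depth and of read assignment in these values was not tested. At day 10 against day 4 in whole cells the median log2 change was -0.53 for the 7 subunit genes without a copy. It was -0.54 for the 38 with 1 to 10 copies and -0.51 for the 31 with over 10. In cytoplasm at day 12 against day 0 these medians were -0.58, -0.52 and -0.48.

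**Figure D5:**
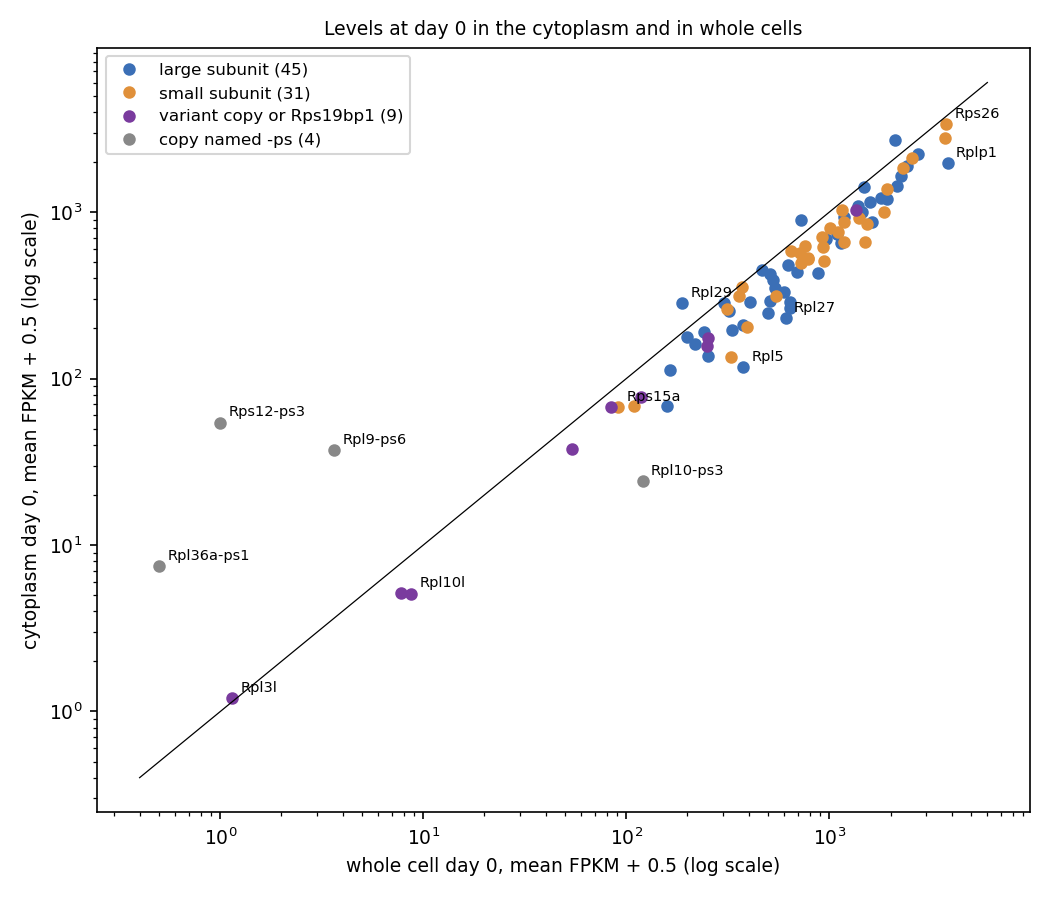
Mean FPKM + 0.5 of 89 ribosomal protein genes in day 0 cytoplasm (vertical) and day 0 whole cells (horizontal), both on log scales, coloured by class, with the line of equal values. Most genes lie just below the line, Rps12-ps3, Rpl9-ps6 and Rpl36a-ps1 lie far above it, and Rpl10-ps3 and Rpl5 lie below it.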

How the data were processed

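The authors deposited, per the file headers, 1 FPKM value per gene and library, and Cufflinks 1.3.0, TopHat2 2.0.9 and the build mm9 appear in the submitters' processing notes, which give them no role. The libraries were poly(A)-selected, directional and paired-end at 100 bases, per the labels' protocols. How reads that match several places were assigned, and with which gene models and strand rule, is not stated in the labels. FPKM summed to 275545 to 459892 per library; total counts are unknown, so no counting interval is given. Tables were joined by gene identifier, since the whole cell tables labelled day 12 list genes in another order.

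Groups came from the labels. Values were tested as log2(FPKM + 0.5), which understates changes of low genes, with limma 3.58.1 in R 4.3.3 (eBayes with trend) and Benjamini-Hochberg adjustment at 0.05 over all genes that averaged 0.5 FPKM or more in any group fitted. One fit held the 15 whole cell libraries, 1 the 12 fraction libraries, and 1 all 27 for cytoplasm against whole cells at day 0. Of the 91 genes, 89 passed this filter, without Rpl36-ps4 and Rpl9-ps1. The fit was tested on simulated data. "Rose" and "fell" refer to this test. A count from another fit that stands without a share of all genes cannot be set against one.

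The rule for named genes took the 8 largest rises and falls at day 10 against day 4, and 3 each elsewhere, among genes that passed, reached 2 FPKM and had groups without overlap. Variant copies and their partners, Rps19bp1, the P-stalk, Rpl5, Rpl11, Rpsa, Rps6, Rps2 and Rpl41 were named whatever they did; other genes were named after their values were seen. Members and lists were chosen with earlier results of these data known. Copies were found with BLAST 2.17.0 in GENCODE M21 (GRCm38), and no mm9 coordinate was used. Other steps used Python 3.11.15 with numpy 2.4.6, pandas 2.3.3 and scipy 1.17.1, and figures matplotlib 3.10.9. The alternatives tried were a pseudocount of 0.1 or 1, tests with no filter or one at 1 FPKM, median-of-ratios, quantile and non-member scaling, the replicate block, only the groups compared, each library left out, and those added later. The main fits did not pair libraries by replicate number. Results of a few genes are not reported here.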

Additional observations from a re-analysis of the deposited data

How the results depend on the processing

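The fall at day 10 against day 4 and in day 12 cytoplasm kept its direction under every alternative, by the median over the members. Its count of genes moved, and the cause was not tested. Counts of this section for which no share of all genes is given above cannot be set against one. The counts of genes that fell when only the groups compared were fitted were 11 at day 10 against day 4, 0 at day 8 against day 4, 2 at day 4 against day 0, 0 in the libraries labelled day 12 against day 4, 49 at day 10 against day 8, 78 in cytoplasm (with 1 higher), 2 in nuclei, and 68 for day 0 cytoplasm against whole cells; 0 rose in the libraries labelled day 12 against day 4, and 1 was higher in nuclei than in cytoplasm at day 12. Quantile normalization gave 22 lower in cytoplasm, 28 in nuclei, 8 at day 10 against day 8, 9 and 6 in the libraries labelled day 12 against days 4 and 10, 10 and 15 in nuclei against cytoplasm at days 0 and 12, and 7, 1, 1 and 3 higher at day 4, at day 10 and in nuclei against cytoplasm at days 0 and 12. It turned Rpl3 at day 10 to 0.011 and Rpsa, labelled day 12 against day 10, to -0.12 (log2), while it moved the median of all genes from 0.09 to -0.01 at day 10. Rescaling to the other protein-coding genes gave 14 lower in cytoplasm, 25 in nuclei and 5 at day 10 against day 8, 2 higher in the libraries labelled day 12 against day 4, and 1 higher in nuclei than cytoplasm on each day. Median-of-ratios scaling gave 7 lower at day 4, 5 lower in nuclei at day 0 and 0 higher in the libraries labelled day 12, and a sum -33.8% in day 0 cytoplasm against whole cells. Without a filter the counts lower were 3 at day 8, 5 in cytoplasm, 1 and 4 in nuclei against cytoplasm at days 0 and 12, and 1 at day 10 against day 8, with 0 higher in the libraries labelled day 12. Without those libraries, 6 fell at day 8 against day 4 and 1 at day 10 against day 8. Without the 2 nuclear libraries the counts were those given above, 26 higher in nuclei at day 12, 66 lower and 1 higher in nuclei against cytoplasm at day 0, 17 lower and 28 higher at day 12, and 68 for the ratio.

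Leaving out 1 library gave, for genes lower, 8 to 32 at day 4, 2 to 46 at day 8, 31 to 78 at day 10, 1 to 5 in the libraries labelled day 12, 2 to 5 in cytoplasm, 7 to 26 in nuclei, 1 to 24 and 3 to 9 in nuclei against cytoplasm at days 0 and 12, 12 to 16 in day 0 cytoplasm against whole cells, 0 to 2 at day 10 against day 8, and 1 to 2 in the libraries labelled day 12 against day 10. For genes higher it gave 0 to 32 in the libraries labelled day 12 against day 4 and 36 to 55 against day 10, 0 to 1 in nuclei, and 0 to 1 and 0 to 6 in nuclei against cytoplasm at days 0 and 12. The sums ranged from -16.6% to 12.8% at day 4 against day 0, with -2.77% without day 0 replicate 3, from -14.1% to 16.1% in the libraries labelled day 12 against day 4, from -30.1% to 11.1% (5.53% without nucleus day 0 replicate 1) and from -22.7% to 11.6% in nuclei against cytoplasm at days 0 and 12.

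With the replicate block, 7 genes fell at day 8 against day 4, 1 at day 10 against day 8, and 0 rose in the libraries labelled day 12 against day 4; the other counts stayed within 1.5 times. Same-numbered libraries did not deviate together in every pair, so the numbers were not used to pair them. With 3 libraries per group this does not exclude that same-numbered libraries share a culture.

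The reads behind each value are unknown, so the precision of genes below 10 FPKM, such as Rpl10l and Rpl39l, cannot be given. How reads with several matches were assigned was not tested.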
